A study of Mus musculus with 24 samples.

Results

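m6A peaks on the genes that carry cisplatin into kidney tubule cells, pump it out or convert it were examined in kidneys of mice. The genes were Slc22a2, Slc47a1, Slc31a1, Atp7a, Atp7b, Abcc2, Abcc4, Ggt1 and Anpep, and a peak belonged to them when it overlapped an exon of the gene by at least 1 bp on the same strand in the GRCm38 annotation of GENCODE M21. Of the 91013 peaks listed for 12 kidneys, 30 met this rule. They fell on 4 of the 9 genes, and Slc22a2, Slc47a1, Slc31a1, Atp7b and Ggt1 had no listed peak in any kidney. For comparison, 35.4% of the 21951 protein-coding genes had a peak in at least 1 kidney.

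MeRIP-seq was applied to kidney RNA of 8-week-old male C57BL/6 mice. Control mice (n = 4) received saline, daily and then in place of cisplatin. Mice of the injury group (IG, n = 4) received saline for 14 days and then 1 intravenous injection of cisplatin at 20 mg/kg. Mice of the treatment group (TG, n = 4) received berberine, a plant alkaloid, at 20 mg/kg per day by intraperitoneal injection for 14 days before the same cisplatin dose, and all kidneys were collected 72 h after the intravenous injection. A group with berberine and without cisplatin is not part of the design, so IG against control (IvC) concerns cisplatin, and TG against IG (TvI) concerns berberine given before cisplatin. TG against control (TvC) shares its control kidneys with IvC and its TG kidneys with TvI.

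Cisplatin is taken up from the blood at the basolateral side of proximal tubule cells, mainly by the organic cation transporter OCT2, the product of Slc22a2, and in part by the copper transporter CTR1, encoded by Slc31a1. It leaves the cell through the apical exporter MATE1, encoded by Slc47a1, through the copper ATPases ATP7A and ATP7B, and, joined to glutathione, through the ABC transporters MRP2 and MRP4, encoded by Abcc2 and Abcc4. At the brush border, gamma-glutamyl transferase, encoded by Ggt1, and aminopeptidase N, encoded by Anpep, cleave the glutathione conjugate towards cysteine conjugates, a route that has been tied to the toxicity of cisplatin. m6A is laid down on nuclear RNA within RRACH, in which R is A or G and H is A, C or T, and is known to favour long internal exons and the surroundings of the stop codon. Peaks were called in whole kidney tissue, so fewer cells of a type and less RNA per cell cannot be told apart, and the level of each mRNA was not analysed here.

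Coding sequence under peaks of each of the 4 genes is shown as an example of what the peaks cover. They were read from GRCm38.p6 on the strand of the gene, 5′ to 3′, with matches to RRACH in capitals. Exons of Abcc4 are printed whole, for Atp7a and Anpep the 200-base coding stretch with the most matches is printed, and for Abcc2 the 30 coding bases of its first exon, which begin with the start codon.
Atp7a exon 3, chrX:106085255-106085454, plus strand: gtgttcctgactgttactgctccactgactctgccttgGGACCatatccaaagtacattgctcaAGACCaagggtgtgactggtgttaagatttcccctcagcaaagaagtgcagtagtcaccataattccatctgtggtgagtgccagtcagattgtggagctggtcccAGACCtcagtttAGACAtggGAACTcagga
Atp7a exon 4, chrX:106086596-106086795, plus strand: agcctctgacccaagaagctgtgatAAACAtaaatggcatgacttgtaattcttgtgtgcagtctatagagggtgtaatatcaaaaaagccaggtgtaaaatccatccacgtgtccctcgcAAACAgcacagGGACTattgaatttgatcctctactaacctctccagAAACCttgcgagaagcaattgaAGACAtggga
Abcc4 exon 28, chr14:118500708-118500880, minus strand: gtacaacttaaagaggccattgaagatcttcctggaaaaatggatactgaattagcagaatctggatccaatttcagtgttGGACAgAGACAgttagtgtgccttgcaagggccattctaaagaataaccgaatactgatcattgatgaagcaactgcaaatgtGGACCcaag
Abcc4 exon 29, chr14:118499966-118500071, minus strand: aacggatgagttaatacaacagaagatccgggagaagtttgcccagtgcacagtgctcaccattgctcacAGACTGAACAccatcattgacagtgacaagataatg
Abcc2 exon 1, chr19:43782404-43782433, plus strand: atggacgaattctgcaactctactttttgg
Anpep exon 2, chr7:79841689-79841888, minus strand: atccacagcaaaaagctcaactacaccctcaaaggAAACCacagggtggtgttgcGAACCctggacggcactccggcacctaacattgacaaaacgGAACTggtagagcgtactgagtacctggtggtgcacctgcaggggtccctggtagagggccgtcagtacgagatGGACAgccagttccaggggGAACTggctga

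The whole exon 3 of Atp7a held 8 matches to RRACH, and exon 4 held 8 as well, with 1 GGACT, the motif form most used for m6A. Of the peak exons of Abcc4, exon 28 held 3 matches, exon 29 held 2 and exon 30 held 3, none of them GGACT, and the longer locus on exon 31 held 18, with 3 GGACT. Exon 1 of Abcc2 held 3 matches, none within the 30 coding bases. Anpep held 11 in the locus on exon 2, none GGACT. Such matches are common in peaks. RRACH occurred in 92.2% of the central 173-base windows of all loci at least as long as exon 28 of Abcc4, and GGACT in 18.3%. For windows as long as exon 3 of Atp7a the shares were 99.8% and 44.7%. Only the strand of the gene was searched, and a match does not show that the base is methylated.

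The lists held 8531 to 9579 peaks per control kidney, 6745 to 8357 per IG kidney and 5901 to 6753 per TG kidney. Each peak carries a score (10 times -log10 of its p-value). Read counts are not given and depth is therefore unknown, and an absent peak may have fallen short of the calling threshold. Of 10 kidney marker genes, Umod, Slc12a3, Slc34a1, Lrp2, Aqp2 and Cdh16 had no listed peak in any kidney, so these lists of m6A peaks cannot check the tissue label. Kidney markers had peaks at 0 to 2 genes in control, 2 in each IG and 0 to 2 in TG kidneys. Of 4 markers of injured tubules, 2 had a peak in every IG kidney, 1 to 2 in TG kidneys and 0 in control kidneys. Leukocyte markers had peaks at 0 to 1 of 7 genes in control, 1 in IG and 1 to 2 in TG kidneys, and liver markers at 0 to 1, 1 and 0 to 2 of 4 genes. Their part in the results was not tested.

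**Figure D1:**
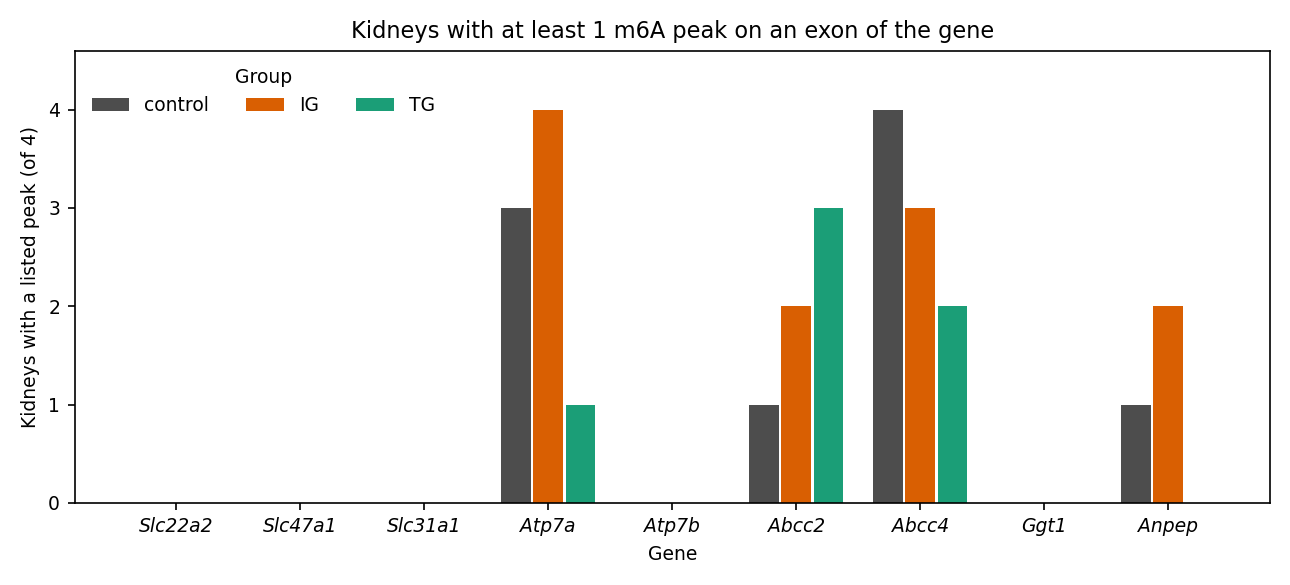
Number of kidneys (y axis, of 4 per group) with at least 1 listed m6A peak on an exon of each of the 9 genes (x axis), with bars for control, IG and TG. Atp7a goes from 3 control and 4 IG kidneys to 1 TG kidney, Abcc2 from 1 control to 3 TG kidneys, and 5 genes have no bar.

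The uptake transporters had no listed m6A peak. Slc22a2 (chromosome 17, 12584132 to 12628488, plus strand) and Slc31a1 (chromosome 4, 62360727 to 62391769, plus strand) had 0 peaks in 12 kidneys, on either strand and anywhere in the gene body. Slc47a1, the apical exporter (chromosome 11, 61343401 to 61378345, minus strand), also had 0, as did Ggt1 (chromosome 10, 75561604 to 75586200, plus strand) and the copper ATPase gene Atp7b (chromosome 8, 21992785 to 22060305, minus strand). Within 10000 bp of these 5 genes no peak was listed either, and RefSeq exons in place of GENCODE exons gave the same 0. No direction or difference can be stated for these genes in IvC, TvI or TvC.

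Each of the 5 genes without a peak held RRACH matches. The transcript of Slc31a1 held 68 matches to RRACH, or 18.3 per kb (percentile 85.7 of protein-coding genes). That of Atp7b held 83 matches, spanned 6505 nt and had an internal exon of 1207 nt (percentile 96.2). Ggt1 was at the other end, with 16 matches in 2167 nt (7.38 per kb, percentile 1.72). Slc22a2 held 28 matches and Slc47a1 held 41. Among the genes with a peak, Atp7a held 71 matches, Abcc2 113, Abcc4 79 and Anpep 54. Across all genes, the median was 52 matches in the 7774 genes with a peak and 31 in the 14177 without. Transcripts of genes with a peak were also longer, with a median of 3446 nt against 2093 nt. Per kb, the medians were close, at 15.1 matches with a peak and 14.6 without. The share of genes with a peak was 36.1% where the longest internal exon had 193 to 287 nt and 51.2% where it had 288 nt or more. Atp7a and Anpep, with longest internal exons of 726 and 1023 nt, fell into the latter class, as did Atp7b. Abcc2 (255 nt) and Abcc4 (250 nt) fell into the former, together with Slc22a2 (215 nt) and Ggt1 (193 nt), which had no peak. Slc31a1 (187 nt) and Slc47a1 (149 nt) were in the class of 126 to 192 nt, where 32.1% of genes had a peak.

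**Figure D2:**
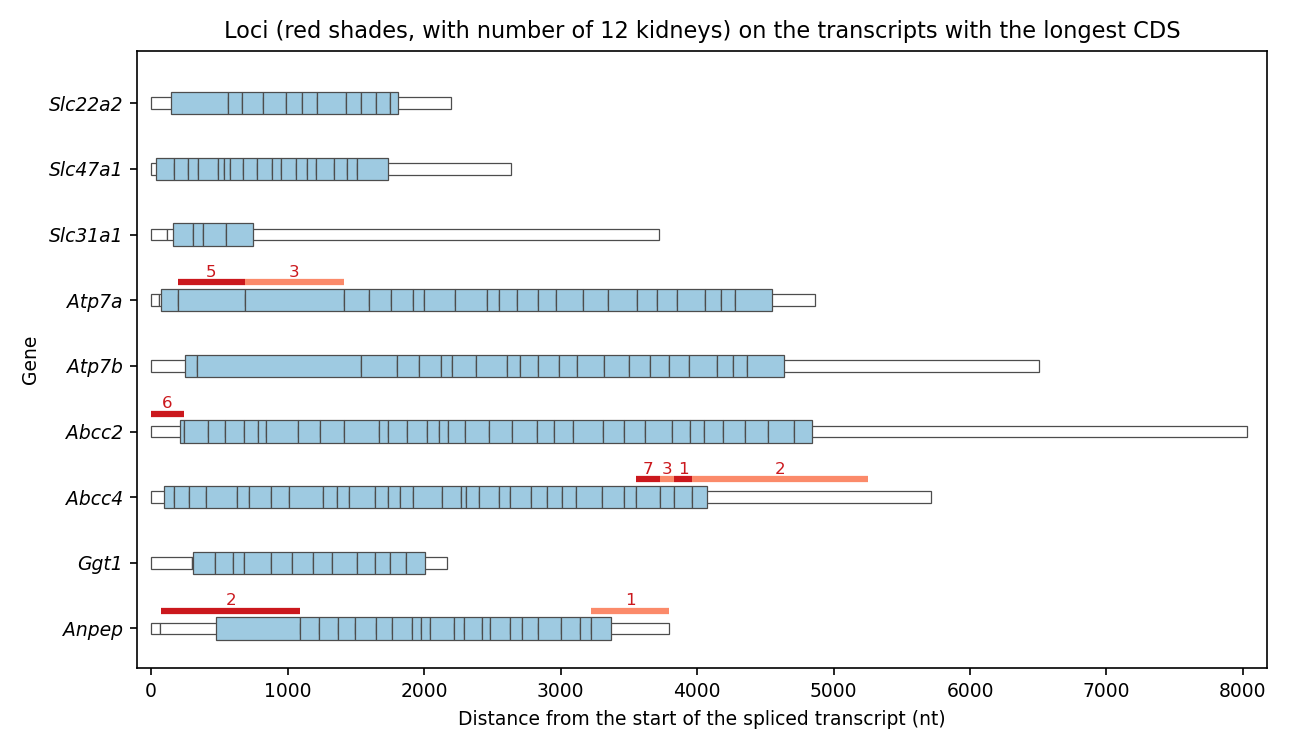
Spliced transcripts with the longest coding sequence of the 9 genes, with distance from the transcript start in nt on the x axis, coding sequence as tall blue boxes, untranslated parts as low white boxes and exon borders as vertical lines. Red bars in alternating shades are loci with a listed peak and the numbers above them are kidneys out of 12: those of Atp7a lie near its start, those of Abcc4 over its last exons, and Atp7b has none.

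Atp7a encodes a copper-transporting ATPase that moves copper into the secretory pathway and out of the cell and can bind platinum. It had 8 peaks in 8 kidneys, which lay on exon 3 (chromosome X, 106085114 to 106085603, codons 41 to 204) and exon 4 (chromosome X, 106086089 to 106086814, codons 204 to 446) of 23 exons. Both are coding exons of the N-terminal part of the protein, which carries the copper-binding domains. In control kidneys, the exon 3 peak was listed in kidney 4, with a score of 213.1, and the exon 4 peak in kidneys 1 and 2, with scores of 33.97 and 72.6. In IG the exon 3 peak had scores of 71.6, 159.5 and 129.6 in kidneys 1, 3 and 4, and the exon 4 peak had 39.1 in kidney 2. TG kidney 4 had the exon 3 peak with a score of 87.9, and TG kidneys 1, 2 and 3 had none. Counted per gene, Atp7a thus had a peak in 3 of 4 control, 4 of 4 IG and 1 of 4 TG kidneys.

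Control kidneys had 0.75 ± 0.50 Atp7a peaks on average (SD, n = 4), against 1 ± 0 in IG and 0.25 ± 0.50 in TG. The difference in TvI was -0.75, with 3 of 4 TG kidneys below every IG kidney (two-sided exact permutation test, p = 0.143, Benjamini-Hochberg adjusted p = 1 over 6666 genes). In 3.3% of these genes, at least 3 fewer TG than IG kidneys had a peak, as in Atp7a. Without TG kidney 4, the only TG kidney with an Atp7a peak, the difference was -1 (two-sided exact permutation test, p = 0.0286, adjusted p = 1 over 6515 genes, with 1.92% of genes under 0.05). Leaving out any other TG or IG kidney gave p = 0.143 in the same exact test. In IvC the difference was 0.25 (p = 1, exact permutation test), and in TvC it was -0.5 (p = 0.486). The IvC difference was 0 without control kidney 3, 0.333 without any other control kidney and 0.5 with lists of equal length. The TvC difference was -0.75 without control kidney 3 or TG kidney 4. Expressed per 10000 listed peaks, the IvC difference became 0.515 (exact permutation test, p = 0.0286, adjusted p = 0.135 over 7526 genes, with 21.1% of genes under 0.05), with IG lists shorter than control lists and 1 peak in each IG kidney.

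Exons 3 and 4 of Atp7a are 485 bp apart, and no kidney had a peak on both, although 8 kidneys had a peak on either. Kidneys of the same group differed in which exon was listed. Among 512 pairs of neighbouring loci of a gene that lay within 1000 bp and had a peak in at least 3 kidneys each, 39 (7.62%) were likewise never listed together in a kidney. In no list did a MACS peak number occur on more than 1 line, so a called peak was listed at a single position. By locus, exon 3 was listed in 1 control, 3 IG and 1 TG kidney (Fisher's exact test, p = 0.486 in IvC and in TvI, adjusted p = 1 over all loci), and exon 4 in 2, 1 and 0 kidneys (p = 1 in IvC and in TvI, 0.429 in TvC by the same exact test). The presence pattern of exon 3 over the 12 kidneys was shared by 3 other loci, in Agtr1a, Ccdc66 and Rock1. Ordered by the mean absolute difference of the score percentile over 5 kidneys, these lay 16.9, 34.7 and 38.3 percentage points from Atp7a.

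**Figure D3:**
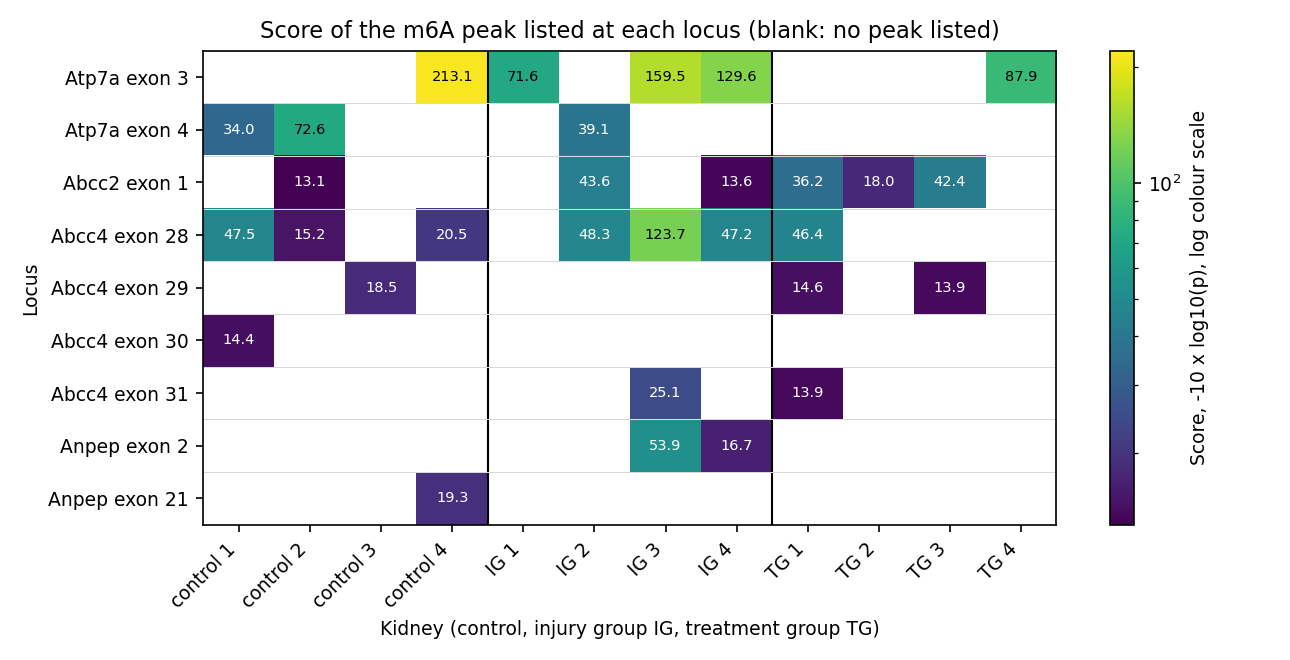
Score of the listed peak (colour, log scale, and number in each cell, rounded to 1 decimal) at the 9 loci of the genes with a peak (rows) in the 12 kidneys (columns, with lines between control, IG and TG). Blank cells have no listed peak: exons 3 and 4 of Atp7a are never filled in the same column, and Abcc4 exon 28 is the row with the most kidneys, 7 of 12.

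Abcc4 encodes MRP4, an apical exporter of organic anions and conjugates. It had the most peaks of the 9 genes, 13 in 9 kidneys, and all lay on exons 28 to 31 of 31 in the transcript with the longest CDS. Exon 28 (chromosome 14, 118500708 to 118500880, codons 1153 to 1210 of 1325) was listed in 3 of 4 control, 3 of 4 IG and 1 of 4 TG kidneys. The scores on exon 28 were 47.5, 15.2 and 20.5 in control kidneys 1, 2 and 4, 48.3, 123.7 and 47.2 in IG kidneys 2, 3 and 4, and 46.4 in TG kidney 1. The scores of controls and IG overlapped, and the single TG score lay among them. Exon 29 (118499966 to 118500071) had a peak in control kidney 3 and TG kidneys 1 and 3, exon 30 (118490499 to 118490633) in control kidney 1, and exon 31, the last (locus 118483156 to 118484440, with the stop codon and part of the 3′ UTR), in IG kidney 3 and TG kidney 1. Scores at these other exons were between 13.9 and 25.1, against 13.02 as the lowest score in any list.

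Counted per gene, Abcc4 had a peak in 4 control, 3 IG and 2 TG kidneys. Control kidneys had 1.25 ± 0.50 Abcc4 peaks on average (SD, n = 4), against 1 ± 0.816 in IG and 1 ± 1.41 in TG. The differences were -0.25 in IvC, 0 in TvI and -0.25 in TvC (two-sided exact permutation test, p = 1 for each). The sign of the IvC and TvC differences turned when the lists were brought to equal length (0.5 and 0.25). TG kidney 1 alone held 3 of the 4 TG peaks, and without it the TvC difference was -0.917. Without IG kidney 3, which held 2 of the 4 IG peaks, the IvC difference was -0.583. In TvI, the difference ranged from -0.667 (without TG kidney 1) to 0.333 (without IG kidney 3, TG kidney 2 or TG kidney 4).

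Abcc2 encodes MRP2, which exports glutathione conjugates across the apical membrane. All 6 of its peaks spanned exon 1 (chromosome 19, 43782192 to 43782433, plus strand), of which 30 of 242 bases are coding and the rest is 5′ UTR. The score was 13.1 in control kidney 2, the lone control peak. It was 43.6 in IG kidney 2 and 13.6 in IG kidney 4, and 36.2, 18.01 and 42.4 in TG kidneys 1, 2 and 3. A further 17 peaks were listed within 10000 bp of Abcc2, outside the gene. The exon 1 locus was thus listed in 1 control, 2 IG and 3 TG kidneys, the one locus of the 9 with more TG than IG and more IG than control kidneys. The share of all loci with this order was not counted. All of its scores lay below 71.3, the median of all peaks, and those of 13.1 and 13.6 were near 13.02, the lowest score in any list. The differences in peaks per kidney were 0.25 in IvC, 0.25 in TvI and 0.5 in TvC, none beyond the spread between kidneys (two-sided exact permutation test, p = 1, 1 and 0.486, adjusted p = 1 for each). Leaving out 1 kidney moved these differences, from 0.0833 (without IG kidney 2 or 4) to 0.5 (without control kidney 2) in IvC, from 0.0833 (without IG kidney 1 or 3) to 0.5 (without TG kidney 4) in TvI, and from 0.417 to 0.75 (without control kidney 2 or TG kidney 4) in TvC. TG lists were shorter than control lists, and per 10000 listed peaks the TvC difference was 0.908 (exact permutation test, p = 0.143).

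Anpep, the brush border aminopeptidase, had 3 peaks in 3 kidneys. Exon 2 (locus on chromosome 7, 79841638 to 79842650, minus strand), which holds the start codon, had a peak with scores of 53.9 and 16.7 in IG kidneys 3 and 4 and in no control or TG kidney. The last exon (79821803 to 79822376), which holds the stop codon, had a score of 19.3 in control kidney 4. Anpep had peaks in 1 control, 2 IG and 0 TG kidneys, with differences in peaks per kidney of 0.25 in IvC and -0.5 in TvI (two-sided exact permutation test, p = 1 and 0.429, adjusted p = 1 over all genes). The IvC difference was 0.5 without control kidney 4 and 0.0833 without IG kidney 3 or 4, and the TvI difference was -0.333 without either of these IG kidneys. In TvC the difference was -0.25, and it was 0 without control kidney 4. A peak in 2 of 4 against 0 of 4 kidneys had p = 0.429 in Fisher's exact test. The exon 2 peak spanned 739 bp in IG kidney 3 and 1013 bp in IG kidney 4, with the same 3′ end.

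No locus of the 9 genes passed the test in any comparison. Only 4 of 4 against 0 of 4 kidneys reaches p under 0.05 (p = 0.0286, two-sided Fisher's exact test). It was found at 0 of 9 loci in IvC, where 4.08% of all 16072 loci met it. In TvI it was found at 0 of 7 loci, against 0.666% of 13367, and in TvC at 0 of 8 loci, against 4.73% of 15169. With so few loci, counts of 0 do not set the genes apart from these shares. A difference of at least 3 kidneys was found at none of their loci either, against 12.8% of all loci in IvC, 4.49% in TvI and 14.8% in TvC. Differences of 2 kidneys occurred at 2 of 9 loci in IvC (exon 3 of Atp7a and exon 2 of Anpep, both with more IG kidneys), where 30.8% of all loci differed by 2 or more. In TvI they occurred at 4 of 7 loci, against 19% of all, with fewer TG kidneys at exon 3 of Atp7a, exon 28 of Abcc4 and exon 2 of Anpep and more at exon 29 of Abcc4. In TvC they occurred at 3 of 8 loci, against 33.4%, with fewer TG kidneys at exon 4 of Atp7a and exon 28 of Abcc4 and more at exon 1 of Abcc2. After adjustment over all loci, 0 loci of the whole lists passed 0.05 in each comparison, and 0 of the genes passed in the test of peaks per gene, where 7.15% of genes in IvC, 1.14% in TvI and 9.14% in TvC had an unadjusted p under 0.05 and 0 of the 4 genes with a peak did. The mean difference in kidneys over the tested loci was 0.222 in IvC, against -0.383 for all loci, -0.571 in TvI, against -0.307, and -0.25 in TvC, against -0.677. No locus had a peak in all 8 kidneys of a comparison, so the test of score percentiles, which called 22.4% of eligible loci in IvC at an unadjusted p under 0.05 and 0 after adjustment, had no locus of these genes.

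Summed over the 9 genes, control kidneys had 3, 3, 1 and 3 peaks, IG kidneys 1, 3, 4 and 4, and TG kidneys 4, 1, 2 and 1. The mean was 2.5 ± 1 in controls, 3 ± 1.41 in IG and 2 ± 1.41 in TG (SD, n = 4 each), and the ranges of the 3 groups overlapped. The IvC difference of 0.5 became 0 without control kidney 3, 1.17 without IG kidney 1 and 0.167 without IG kidney 3 or 4, and 1.5 (pooled SD 0.764) with lists of equal length. Every control list was longer than every IG and TG list, and per 10000 listed peaks the means were 2.80 ± 1.14, 4.04 ± 1.92 and 3.13 ± 2.14.

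The peaks of the 9 genes were low in their lists and varied between kidneys of one group. Their scores ran from 13.1 to 213.1 with a median of 37.7, against 71.3 for all peaks, and 25 of 30 ranked below the median of their own list. Scores under 20 made up 36.7% of them and 13.5% of all peaks. At most 7 of 12 kidneys had a peak at any of the 9 loci, whereas 31.9% of all 16815 loci had one in at least 8 kidneys and 14.4% in all 12. The median was 3 kidneys per locus, against 4 over all loci, and 16 of 17 loci of a wider list of 44 related genes were likewise at 7 or fewer. Loci with a peak in a single kidney numbered 2 of 9, against 23.1% of all loci. Most peaks followed the exon borders, with 26 of 30 spanning exactly an annotated exon, against 64.5% of all peaks, so their ends do not mark a methylated base.

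**Figure D4:**
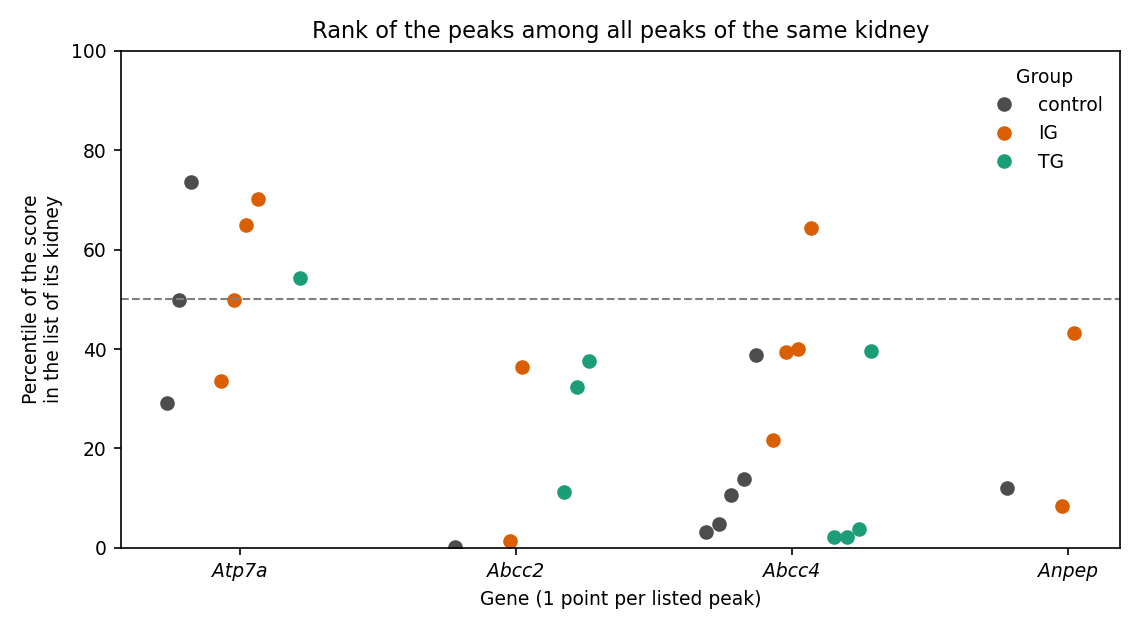
Percentile of the score of each of the 30 peaks in the list of its own kidney (y axis, 0 to 100, dashed line at 50), by gene (x axis) and group (colour, with the points of a group set side by side in rising order so that they do not overlap). Only 4 peaks of Atp7a and 1 of Abcc4 lie above the line, and the highest of Abcc2 and Anpep are at 37.6 and 43.2.

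Among 44 other genes of platinum, thiol and organic ion handling, 14 (31.8%) had a listed peak, on 17 loci. In IvC 1 of 13 tested loci was listed in 4 IG and 0 control kidneys and 1 in the reverse, against 1.35% and 2.73% of all loci in those directions, and 0 of 14 in TvI and 0 of 13 in TvC passed. The median difference over these loci was 1 kidney in IvC, 0 in TvI and 1 in TvC, against 0, 0 and -1 over all loci. The mean difference was 0.154, -0.214 and -0.0769, so the TvC mean and median differ in sign, against -0.383, -0.307 and -0.677 over all loci. Abcc1, which encodes MRP1, another exporter of glutathione conjugates, had a peak on its last exon (chromosome 16, 14473460 to 14474965, with the stop codon) in all 4 control kidneys, with scores of 144.5, 93.9, 115.4 and 34.1. It had none in IG kidneys and 1 in TG, with a score of 44.7 in kidney 1 (two-sided Fisher's exact test in IvC, p = 0.0286, adjusted p = 0.701). Acy3, an aminoacylase that acts on mercapturic acids, the end products of glutathione conjugates, showed the opposite. Its last exon (chromosome 19, 3989653 to 3990007) had scores of 60.5, 82.8, 43.6 and 92.6 in the 4 IG kidneys, none in controls and 31.6 in TG kidney 4 (Fisher's exact test in IvC, p = 0.0286, adjusted p = 0.701). In TvI, the exact permutation test of peaks per kidney gave p = 1 for Abcc1 and 0.143 for Acy3. Acy3 had 1 ± 0 peaks in IG and 0.25 ± 0.5 in TG (SD, n = 4). A peak in 4 of 4 against 1 of 4 kidneys always gives p = 0.143 in the exact test.

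Lrrc8d, which was singled out after its values were seen, was the one gene of this wider list with a peak in all 12 kidneys. It encodes a subunit of the volume-regulated anion channel, which also admits cisplatin. Its single locus covers the coding exon (chromosome 5, 105811724 to 105815215), with scores of 1279 to 2254 in controls, 1357 to 2749 in IG and 860.0 to 1031 in TG. The TG scores lay below all others, and control and IG scores overlapped. As a percentile of its list, the peak stood at 97.5 ± 1.02 (SD, n = 4) in controls, 97.01 ± 1.26 in IG and 93.4 ± 1.13 in TG. The TvI difference was -3.61 percentage points (two-sided exact permutation test, p = 0.0286, adjusted p = 0.397 over 2776 loci, 7.2% of which had p under 0.05). In TvC it was -4.13 (exact test, p = 0.0286, adjusted p = 0.112, with 25.5% of loci under 0.05), and in IvC -0.519 (p = 0.543).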

How the data were processed

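Peak lists of 12 kidneys were analysed (4 control, 4 IG, 4 TG, grouped by the sample titles). The authors trimmed the reads with cutadapt 1.9.3, aligned them with HISAT2 2.0.4 to mm10 (versions per the labels) and called peaks in each kidney with MACS. The MACS version, threshold and control library are not given in the sources used here. The score that the authors deposited, read as 10 times -log10 of the p-value, served only for description and for ranks within a list. Depth is unknown, and the error of each comparison is the spread over 4 mice per group. The 12 input libraries were not analysed here. Of all listed peaks, 98.7% overlapped an exon of a protein-coding gene on its strand.

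Same-strand peaks sharing 1 bp or more formed a locus (16815 loci), and genes were the protein-coding genes of GENCODE M21. The spliced GRCm38.p6 sequence equalled the GENCODE transcript for 9 of 9 genes. Presence at each locus was compared by a two-sided Fisher's exact test, peaks per gene and score percentiles by exact permutation, two-sided, with 70 possible arrangements (smallest p 0.0286). Benjamini-Hochberg adjustment covered every locus or gene with a peak in either group. For score percentiles it covered every locus with a peak in all 8 kidneys of the comparison. All loci of the 9 genes are named. Genes of the wider list are named when a locus was listed in 4 kidneys of one group and 0 of another. Lrrc8d is an exception, chosen after its values were seen. Likeness was measured for exon 3 of Atp7a, which tied with exon 2 of Anpep for the largest IvC difference and had the higher mean score in IG. The most like loci share its presence pattern and are ordered by score percentile. Alternatives covered the joining of peaks, score and list length limits, annotation, scaling, a replicate block and each kidney left out. The members and lists were chosen with earlier results of these data known. No 2 lists shared more than 1.05% of their lines. The test of presence was tested on simulated data. The tools were numpy 2.4.6 and scipy 1.17.1 for the tests, pysam 0.24.0 for sequences and matplotlib 3.10.9 for plots, under Python 3.11.15.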

Additional observations from a re-analysis of the deposited data

Results flagged for a closer look

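Of 5 groups of 4 values examined, 2 held a kidney that stood apart by Dixon's ratio of gap to range, which passes its 95% limit in about 1 in 20 groups of continuous values by chance. Control kidney 3 had 1 peak over the 9 genes, against 3 in each other control kidney, a ratio of 1, which any count takes when the other 3 are equal, so that rate does not apply to it. The highest Abcc4 score of control kidney 1 was 47.5, against 15.2, 18.5 and 20.5 in the other control kidneys, a ratio of 0.835.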

How the results depend on the processing

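No locus of the 9 genes had p under 0.05 in IvC, TvI or TvC when peaks were joined regardless of strand, within 100 bp or by a reciprocal overlap of at least 50%, with scores at or above the median (71.3), with lists of equal length (5901 peaks), with the longest-CDS transcript only, with the replicate block or without any single kidney. The same held for RefSeq exons, exons on either strand and presence per gene, which were chosen after seeing the data. Several of these settings could not have changed the result. Limits on score and list length only remove peaks, and no locus had a peak in every kidney of a group. The longest-CDS, RefSeq and either-strand settings kept the same 30 peaks, and the replicate block cannot go below p = 0.125 (exact sign-flip permutation test). The 30 peaks fell to 7 on 2 genes at the median score and to 18 on 4 genes at equal length.

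The difference summed over the 9 genes was 0.5 in IvC, -1 in TvI and -0.5 in TvC, and leaving out each kidney in turn gave 0 to 1.17, -1.67 to -0.667 and -1.17 to -0.167. At equal list length, with 3 control, 9 IG and 6 TG peaks left, it was 1.5 in IvC (pooled SD 0.764) and -0.75 in TvI. In TvC it turned to 0.75 at equal list length and to 0.333 per 10000 listed peaks, with TG lists shorter than control lists. For Abcc4 the IvC difference turned to 0.25 at the median score, 0.5 at equal length and, over kidneys left out in turn, ranged from -0.583 (without IG kidney 3) to 0.0833 (without IG kidney 1). In TvC it turned to 0.25 at equal length, 0.156 per 10000 peaks and ranged from -0.917 (without TG kidney 1) to 0.0833 (without TG kidney 2 or TG kidney 4). The cause was not tested. For Atp7a, an unadjusted p of 0.0286 was reached in TvI without TG kidney 4 (1.92% of genes under 0.05) and in IvC per 10000 listed peaks (21.1% of genes under 0.05, exact permutation tests).

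The sample titles do not say whether the replicate numbers pair the kidneys. Deviations of same-numbered kidneys correlated between -0.0211 and 0.0490, so no shared deviation was seen. With the replicate block, which cannot go below p = 0.125, the sums were 0.5, -1 and -0.5 and the Atp7a difference in TvI had p = 0.25 (exact sign-flip permutation test). Alternatives for score percentiles gave no value, because no locus of the 9 genes had a peak in all 8 kidneys.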
